A study of Mus musculus with 34 samples.

Results

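The genes that license DNA replication origins and build the replication fork were followed in 34 single mouse embryos that had received mRNA for the checkpoint kinase CHK1 at the early zygote stage. The set was 47 genes taken by symbol, out of 49686 gene symbols in the zygote and late 2-cell tables and 51734 in the blastocyst table, and all 47 were found in every table. The injected mRNA encoded either wild-type CHK1 (WT) or the R442Q mutant. There were 11 zygotes (5 WT, 6 R442Q), 9 late 2-cell embryos (4 WT, 5 R442Q) and 14 blastocysts (7 of each genotype). Zygotes and late 2-cell embryos are labelled as untreated, whereas the blastocysts of both genotypes had been cultured with a CHK1 inhibitor at 30 nM. Every embryo in every group therefore carried injected CHK1 mRNA on top of its own Chk1 gene, strain and age in hours are not given in the sources used here, and no uninjected embryo and no blastocyst without inhibitor was analysed here. Each library was 1 whole embryo, and p-values measure the spread between these embryos.

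Replication starts from origins that are prepared before S phase. The origin recognition complex (Orc1 to Orc6) marks the site, and Cdc6 and Cdt1 then load the ring-shaped MCM helicase (Mcm2 to Mcm7) onto DNA, a step that geminin (Gmnn) blocks by holding Cdt1. The kinase Cdc7 with its activator Dbf4, together with cyclin-dependent kinase, switches the loaded ring on by allowing Cdc45 and the GINS complex (Gins1 to Gins4) to join. DNA polymerase alpha and primase (Pola1, Pola2, Prim1, Prim2) lay down primers, polymerases delta and epsilon extend them, the clamp Pcna and its loader (Rfc1 to Rfc5) hold the polymerases on DNA, and Rpa1 to Rpa3 coat the exposed single strands. Fen1 and Lig1 finish Okazaki fragments, and Timeless with Tipin keeps a stressed fork together and helps to pass the signal to CHK1, which in turn restrains new origins. A fertilised mouse egg begins with transcripts stored by the oocyte, and the embryo's own genome is transcribed in earnest during the 2-cell stage.

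Many of these genes are textbook targets of E2F, the transcription factor family that drives genes of the G1-to-S transition, so their promoters were searched for a pair of E2F-type letter patterns. Windows from 250 bases before to 50 bases after the gene start were taken from RefSeq (GRCm38.p6), and 38 of the 47 genes had an entry. TTTCGCGC or TTTGGCGC, on either strand, stood in the windows of 11 of these 38 genes (28.9%), against 0.929% of the 27025 genes in the table. TTTCGCGC alone was found in 6 of the 38 (15.8% against 0.374%) and TTTGGCGC alone in 7 (18.4% against 0.585%), with both in Mcm5 and Mcm6, where the patterns overlap. CCAAT, the letters bound by the NF-Y factor, stood in 23 of the 38 (60.5% against 41.1%), and TTTGAA, the core of the CHR element of cell cycle genes, in 7 (18.4% against 20.2%). The 11 genes with E2F-type letters were Orc1, Cdt1, Mcm3, Mcm5, Mcm6, Mcm7, Mcm8, Pola1, Pole2, Rfc3 and Lig1. The 200 bases before the start are printed as examples for 4 of the 5 whose patterns lie in that stretch, each changed in at least 1 comparison that follows (Pola1 is not shown), and for Mcm2, whose transcript differed most between genotypes in late 2-cell embryos and whose window held none of the E2F-type letters. Capitals mark E2F-type and CCAAT letters on either strand, and each sequence runs 5′ to 3′ on the gene's own strand, at chr4:108579254-108579453 (plus strand) for Orc1, chr8:75109309-75109508 (plus) for Mcm5, chr1:128359706-128359905 (minus) for Mcm6, chr5:151651209-151651408 (minus) for Rfc3 and chr6:88898781-88898980 (minus) for Mcm2.
Orc1: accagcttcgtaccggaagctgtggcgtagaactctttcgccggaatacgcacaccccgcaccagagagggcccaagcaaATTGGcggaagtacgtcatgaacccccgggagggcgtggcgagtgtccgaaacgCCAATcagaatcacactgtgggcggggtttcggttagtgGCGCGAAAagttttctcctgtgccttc
Mcm5: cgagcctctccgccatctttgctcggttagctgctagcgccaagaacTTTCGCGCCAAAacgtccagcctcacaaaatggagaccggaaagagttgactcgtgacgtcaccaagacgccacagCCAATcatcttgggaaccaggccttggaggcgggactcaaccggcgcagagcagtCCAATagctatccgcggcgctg
Mcm6: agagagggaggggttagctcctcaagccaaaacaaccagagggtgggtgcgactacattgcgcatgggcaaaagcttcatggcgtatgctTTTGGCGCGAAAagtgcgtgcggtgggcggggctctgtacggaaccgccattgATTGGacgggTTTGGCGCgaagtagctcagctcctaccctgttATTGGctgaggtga
Rfc3: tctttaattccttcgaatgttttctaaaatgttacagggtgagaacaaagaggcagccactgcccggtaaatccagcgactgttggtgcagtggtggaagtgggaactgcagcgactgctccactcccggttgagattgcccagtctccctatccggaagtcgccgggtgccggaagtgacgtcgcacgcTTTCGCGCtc
Mcm2: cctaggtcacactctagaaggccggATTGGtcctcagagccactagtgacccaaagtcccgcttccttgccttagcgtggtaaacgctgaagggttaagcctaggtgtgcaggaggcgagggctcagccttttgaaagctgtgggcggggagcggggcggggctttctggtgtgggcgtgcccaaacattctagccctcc
A match describes letters in a window and does not show that a factor binds there.

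Each zygote had between 7183632 and 11296522 estimated counts and each late 2-cell embryo between 5727956 and 8916343, and the depth of the blastocysts is unknown because only normalised values were used for them. Chek1 was high in every zygote, at 5979.9 ± 1766 CPM (counts scaled to library size) in WT (SD, n = 5) and 6871 ± 640 in R442Q (SD, n = 6; injected and endogenous transcripts were counted together), and ran from 397 to 683 CPM in WT and from 293 to 687 CPM in R442Q late 2-cell embryos. Within groups, embryos correlated across genes with Pearson's r between 0.877 and 0.974. The summed level of 8 egg and zygote genes was 2863 to 3642 FPKM (fragments per kilobase of transcript, scaled to library size) in WT zygotes and 1894 to 2750 in R442Q zygotes, ranges that did not overlap. In late 2-cell embryos its range was 224 to 672 in WT and 387 to 596 in R442Q. Ooep (14.9 to 25.7 and 49.7 to 135), Zp2 (9.37 to 28.3 and 29.4 to 31.4) and Nlrp5 (22.2 to 44.45 and 44.7 to 50.5) were higher in R442Q without overlap. The other egg and zygote genes overlapped, with medians higher in R442Q for Zp1 and Bmp15 and lower for Zp3, Gdf9 and Padi6. FPKM summed over all genes was 712234 to 742246 in WT and 814376 to 976830 in R442Q late 2-cell embryos. With every embryo scaled to a common sum of 1000000, Ooep remained separate (20.1 to 36.1 and 55.4 to 166), whereas Zp2 and Nlrp5 overlapped. The summed level of 5 late 2-cell genes was 145 to 1414 FPKM in WT and 676 to 2454 FPKM in R442Q late 2-cell embryos. In zygotes it was 21.2 to 62.8 in WT and 35.2 to 108 in R442Q. Zscan4c, Zscan4d and Gm5662 were higher in R442Q zygotes without overlap, but low in WT. Their highest WT values were 1.4, 3.57 and 0.51 FPKM, and their lowest R442Q values 1.91, 4.47 and 1.03 FPKM. Ranges of Tcstv3 and Zfp352 overlapped. The median of Tcstv3 was lower in R442Q zygotes (35.91 FPKM in WT and 23.14 in R442Q), and that of Zfp352 higher (2.12 and 7.9). None of the 10 cumulus cell genes reached a mean of 1 FPKM in zygotes of either genotype, whereas 2 did in late 2-cell embryos of both, where their sum was 43.0 to 73.4 FPKM in WT and 17.5 to 70.5 in R442Q embryos, mostly from Amhr2 (35.9 to 71.5 and 14.2 to 48.7). The part of these differences in the results that follow was not tested.

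The zygote held transcripts of nearly the whole replication machine. In WT zygotes 46 of the 47 genes had a mean of at least 1 FPKM, a scale normalised to transcript length on which levels of different genes can be compared. The origin subunit Orc6 led with 354 ± 27.4 FPKM (SD, n = 5), followed by Rpa3 (271 ± 33.8), Tipin (270.5 ± 25.0), the polymerase delta subunit Pold3 (245 ± 71.3) and geminin (245 ± 16.2), 5 genes whose ranges over embryos overlap in part. The catalytic subunit of polymerase delta, Pold1, stood last at 0.714 ± 0.555 FPKM, and was at 0 counts in R442Q zygotes 3 and 5, where 3 counts would be 0.317 and 0.320 CPM. Gmnn led in R442Q zygotes at 325 ± 31.1 FPKM (SD, n = 6), in WT late 2-cell embryos at 447 ± 159 (SD, n = 4) and in R442Q late 2-cell embryos at 831 ± 437 (SD, n = 5). The median coefficient of variation over the genes was 14.8% in WT zygotes, 18.4% in R442Q zygotes, 29.3% in WT late 2-cell embryos, 40.8% in R442Q late 2-cell embryos and 31.9% and 32.6% in WT and R442Q blastocysts, so the zygote comparison was the most precise of the 3.

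In zygotes the question was whether R442Q changed these transcripts relative to WT CHK1 soon after injection. Several origin, helicase and fork genes were lower in R442Q zygotes, among them Orc1, Orc5, Mcm3, Mcm6, Gins1, Cdc7, Prim1 and Timeless, at 1.55-fold to 1.73-fold below WT. Others were higher, among them Gmnn, Mcm2 and Rfc5, at 1.47-fold to 1.60-fold above WT. Of the 46 genes with enough counts to test, 16 passed an edgeR adjusted p of 0.05 (34.8%), against 13.2% of the 12420 genes tested. Of these 6 were higher, against a background of 6.30%, and 10 were lower, against 6.92%. The median log2 difference was -0.16 over the 46 genes and 0.01 over all genes. Ranges of the genotypes did not overlap for 13 of the 46 genes, of which 5 were higher in R442Q, against 4.04% of all genes, and 8 were lower, against 4.67%. Pold1 was filtered out, with counts between 0 and 2.56 CPM in single zygotes.

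**Figure D1:**
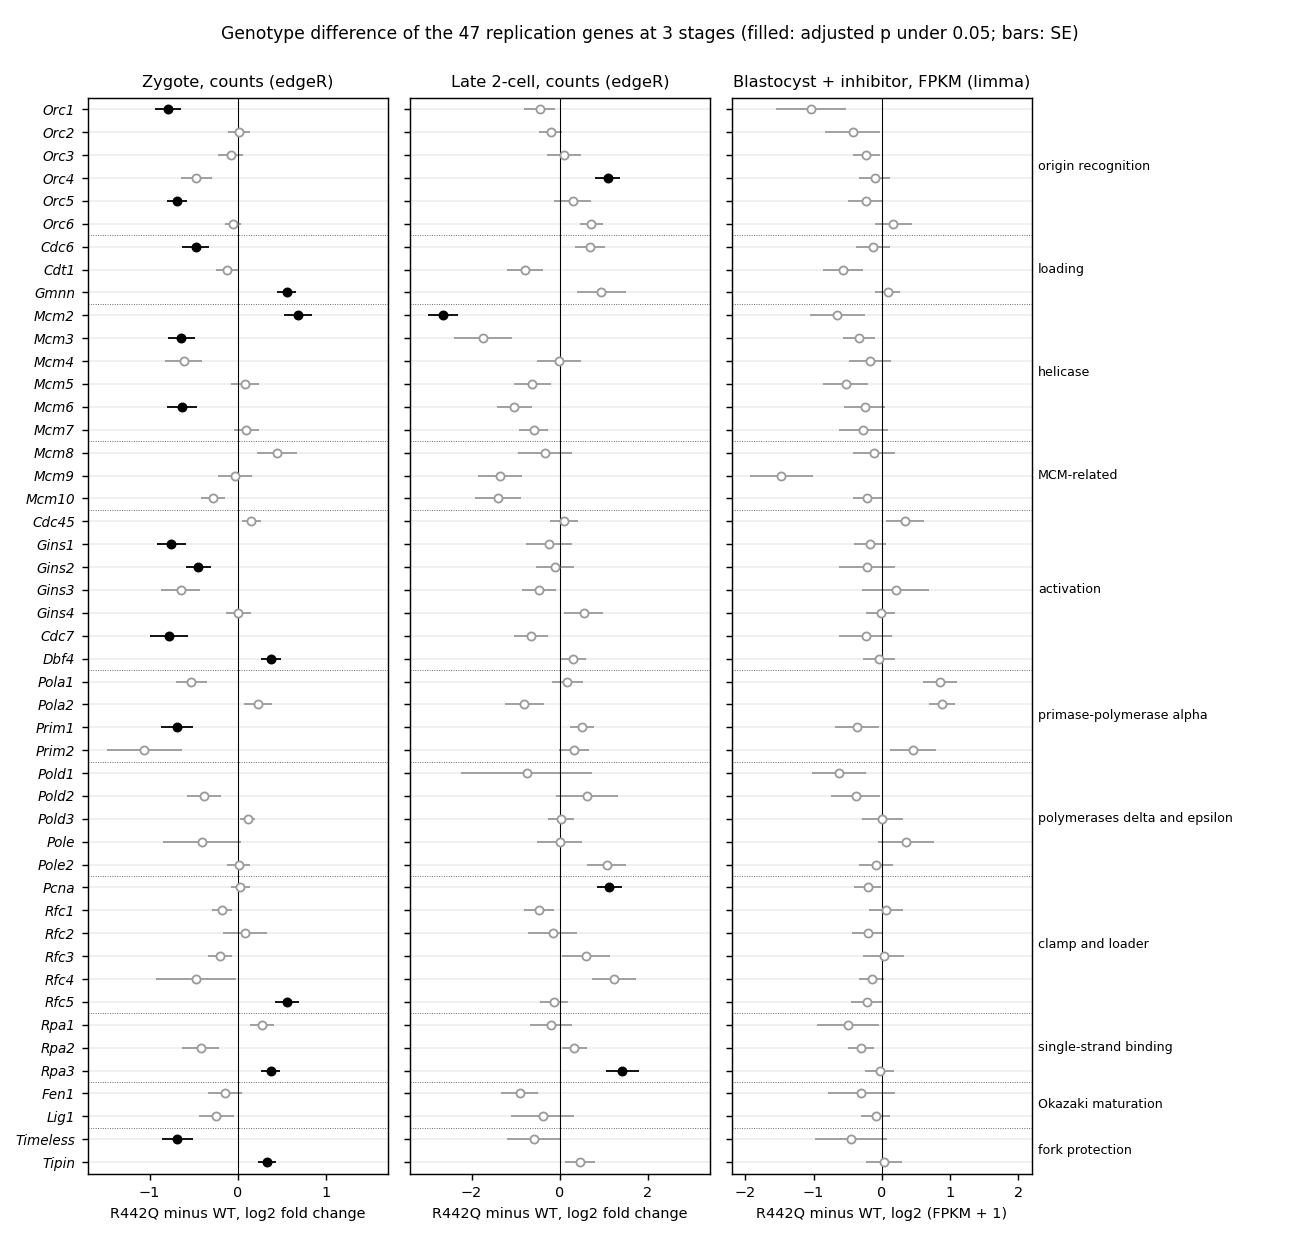
Log2 difference between R442Q and WT embryos for each of the 47 replication genes (rows, ordered by role), with 1 panel for zygotes, late 2-cell embryos and blastocysts. Points are estimates with bars of 1 SE, and filled points passed an adjusted p of 0.05: 16 genes in zygotes, 4 in late 2-cell embryos and 0 in blastocysts, with Pold1 not tested in zygotes.

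Among origin recognition genes, 2 of 6 were lower in R442Q zygotes and 0 were higher, against 6.92% and 6.30% of all genes. Orc5 stood at 328, 399, 328, 402 and 353 CPM in the 5 WT zygotes, and its lowest, median and highest values in the 6 R442Q zygotes were 194, 213 and 265 CPM. All 6 R442Q zygotes were below all WT zygotes, with a log2 difference of -0.69 (SE 0.11, edgeR adjusted p = 0.000943). Orc1, the largest subunit and an ATPase, stood at 72.8, 82.2, 87.4, 84.7 and 101 CPM in WT and at a lowest, median and highest of 30.2, 52.6 and 56.3 CPM in R442Q zygotes. The groups again did not overlap (log2 difference -0.79, SE 0.15, edgeR adjusted p = 0.00294). Orc4 had a log2 difference of -0.47 that did not pass (adjusted p = 0.0821), and Orc2, Orc3 and Orc6 lay between -0.08 and 0.02.

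Genes of the loading step differed in both directions, with the lower call near the threshold. Gmnn, the inhibitor of Cdt1, was at 194, 186, 169, 182 and 186 CPM in WT zygotes, and at a lowest, median and highest of 224, 271 and 325 CPM in R442Q zygotes. Every R442Q zygote exceeded every WT zygote, with means of 183 ± 9.09 (SD, n = 5) and 269 ± 33.5 (SD, n = 6) and a log2 difference of 0.55 (SE 0.11, edgeR adjusted p = 0.00280). The loader Cdc6 was lower (log2 difference -0.48, edgeR adjusted p = 0.0480), a call lost in 9 of the 11 fits that left out 1 zygote. Its partner Cdt1 differed by -0.12 (adjusted p = 0.624).

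The 6 subunits of the MCM ring, which work as a single particle with 1 copy of each, did not move together at the transcript level. Mcm2 stood at 218, 119, 142, 183 and 219 CPM in WT zygotes and at a lowest, median and highest of 219, 277 and 336 CPM in R442Q zygotes. The lowest R442Q zygote lay just above the highest WT zygote, and the log2 difference was 0.68 (SE 0.16, edgeR adjusted p = 0.00958). Mcm3 was at 40.8, 34.1, 42.6, 40.2 and 37.4 CPM in WT and at a lowest, median and highest of 17.3, 26.3 and 28.9 CPM in R442Q zygotes, without overlap (log2 difference -0.64, SE 0.15, edgeR adjusted p = 0.0109). Mcm6 was lower as well (-0.63, adjusted p = 0.0219), Mcm4 had -0.61 (adjusted p = 0.0561), and Mcm5 and Mcm7 differed by 0.08 and 0.10 (adjusted p 0.792 and 0.715). None of the MCM-related genes Mcm8, Mcm9 and Mcm10 passed.

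Of the helicase activation genes, 3 of 7 were lower and 1 was higher, against 6.92% and 6.30% of all genes, and the calls for Gins2 and Dbf4 were lost in 8 of the 11 fits that left out 1 zygote. Gins1 stood at 44.0, 35.4, 30.8, 35.5 and 41.8 CPM in WT zygotes and at a lowest, median and highest of 16.9, 24.3 and 25.4 CPM in R442Q zygotes. No R442Q zygote reached the lowest WT zygote (log2 difference -0.75, SE 0.16, edgeR adjusted p = 0.00629). Gins2 was lower too (-0.45, adjusted p = 0.0471), Gins3 had -0.65 (adjusted p = 0.0629) and Gins4 0.01 (adjusted p = 0.984). The kinase Cdc7 was lower (-0.78, adjusted p = 0.0265) while its activating subunit Dbf4 was higher (0.38, adjusted p = 0.0448). Cdc45 differed by 0.15 (adjusted p = 0.385).

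At the fork itself, 1 of 4 primase and polymerase alpha genes was lower (background 6.92%), the catalytic primase subunit Prim1 (-0.69, adjusted p = 0.0185). Prim2, its regulatory partner, had -1.06 with an SE of 0.43 (adjusted p = 0.115), and Pola1 had -0.52 (adjusted p = 0.0553). None of the 4 tested genes of polymerases delta and epsilon passed. Of the clamp and its loader, only the loader subunit Rfc5 passed, with 63.1, 62.8, 85.6, 85.3 and 89.5 CPM in WT and a lowest, median and highest of 95.6, 114 and 130.5 CPM in R442Q zygotes. Its groups did not overlap (log2 difference 0.56, SE 0.14, edgeR adjusted p = 0.0119), and Pcna differed by 0.03 (adjusted p = 0.904). Rpa3, the smallest subunit of the single-strand binding complex, was higher (0.37, edgeR adjusted p = 0.0319), a call lost in 6 of the 11 fits that left out 1 zygote. Rpa1 and Rpa2 had 0.27 and -0.42 without passing.

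Of the fork protection pair, Timeless was lower, and the higher level of Tipin lay near the threshold. Timeless stood at 177, 178, 214, 149.9 and 173 CPM in WT zygotes and at a lowest, median and highest of 70.5, 106 and 155 CPM in R442Q zygotes. R442Q replicate 4 exceeded WT replicate 4, so the groups overlapped by that pair, and the log2 difference was -0.68 (SE 0.17, edgeR adjusted p = 0.0155). Its partner Tipin was higher (0.33, adjusted p = 0.0426), a call lost in 9 of the 11 fits that left out 1 zygote. Of the 11 genes with E2F-type letters, 3 were lower and 0 higher, and of the 26 tested among the 27 matched genes without them 5 were lower and 4 higher, against 6.92% and 6.30% of all genes.

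**Figure D2:**
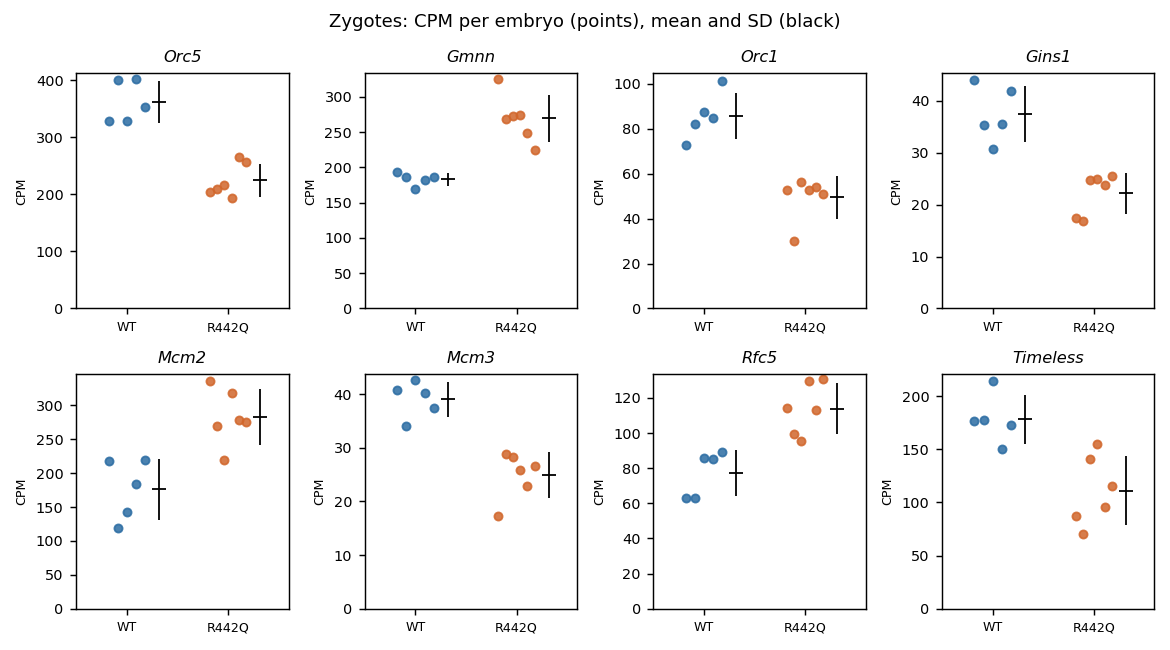
CPM in each zygote (points) for the 8 replication genes with the smallest p in the zygote comparison, with mean and SD (bars) for 5 WT and 6 R442Q embryos. Orc5, Orc1, Gins1, Mcm3 and Timeless lie lower and Gmnn, Mcm2 and Rfc5 higher in R442Q zygotes, and only Timeless has overlapping groups.

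The 8 genes given per zygote kept an edgeR adjusted p under 0.05 in each of the 11 fits that left out 1 zygote. Of the 8, Mcm3 did not pass in limma on FPKM values. The calls for Dbf4, Rpa3 and Tipin were also lost without the filter on low counts, in limma on FPKM values and with length and GC trends removed, Gins2 without the filter, with the trends removed and with relative log expression scaling, and Cdc6 with that scaling. Mcm4, Pola1, Gins3 and Prim2, not called with all zygotes, were called lower in 2, 2, 1 and 1 of the 11 fits. Among the other called genes, Mcm6 and Prim1 lost it without WT replicate 1 (adjusted p 0.0586 and 0.0622), Cdc7 in 4 of 11 fits, Rpa3 in 6, and Cdc6 and Tipin in 9, so that the count ran from 9 without WT replicate 1 to 19 without R442Q replicate 3. With late 2-cell embryos sharing the estimate of spread, 0 of the genes passed in edgeR (11 at an unadjusted p under 0.05), while the same model called 270 of all genes, and DESeq2 on the zygotes alone called 19. The split of 6 higher and 10 lower became 3 and 12 without the filter on low counts or with length and GC trends removed, and 3 and 14 on FPKM values.

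In late 2-cell embryos the same genotypes were compared after the 2-cell genome activation. Mcm2, higher in R442Q zygotes, was now far lower in R442Q embryos. The origin subunit Orc4, the clamp Pcna and the single-strand binding subunit Rpa3 were higher. These 4 of 47 genes passed an edgeR adjusted p of 0.05 (8.51%), against 4.18% of the 13883 genes tested, with 3 higher (background 1.22%) and 1 lower (background 2.95%). Ranges did not overlap for 7 of the 47 genes. Orc4, Orc6, Pcna, Rpa3 and Pole2 lay on the higher side, against 4.39% of all genes, and Mcm2 and Pola2 on the lower side, against 7.58%. The median log2 difference was -0.12 over the 47 genes and 0.07 over all genes.

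Mcm2 (ENSMUSG00000002870.8, chr6:88883474-88898780 on the minus strand of GRCm38) stood at 98.8, 115, 95.3 and 113 CPM in the 4 WT embryos and at 10.2, 16.7, 13.5, 26.8 and 17.1 CPM in the 5 R442Q embryos. The highest R442Q embryo was well below the lowest WT embryo. The means were 105 ± 9.92 (SD, n = 4) and 16.8 ± 6.24 (SD, n = 5), 6.25-fold lower in R442Q, with a log2 difference of -2.64 (SE 0.34, edgeR adjusted p = 0.00223). Leaving out each embryo in turn gave adjusted p-values from 0.00432 to 0.0143. The other subunits of the ring had log2 differences of -1.73 for Mcm3 (adjusted p = 0.145), -1.03 for Mcm6 (0.147), -0.62 for Mcm5 (0.444), -0.60 for Mcm7 (0.329) and -0.02 for Mcm4 (0.989), none of which passed. Without R442Q replicate 3, Mcm3 had -2.47 (adjusted p = 0.0329), or 5.53-fold lower, the 1 of 9 fits with an embryo left out in which it was called. Mcm9 and Mcm10, the latter a fork factor that helps to start the helicase, had -1.36 and -1.40 (adjusted p 0.135 and 0.140).

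Orc4 was at 45.4, 45.2, 60.1 and 62.4 CPM in WT and at 132, 96.8, 103, 109 and 125 CPM in R442Q late 2-cell embryos, without overlap. The log2 difference was 1.09 (SE 0.28, edgeR adjusted p = 0.0430). Its sister subunit Orc6 also had separate groups, with 415, 389.6, 461 and 375 CPM in WT and 710.1, 726, 502, 776 and 646 CPM in R442Q embryos, but a log2 difference of 0.71 did not pass (adjusted p = 0.131). Exons of Orc4 overlap Acvr2a and Mbd5 on the opposite strand and those of Orc6 overlap Vps35. Whether reads were counted by strand is not given, and if they were not, such reads cannot be told apart.

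Pcna stood at 159, 167, 123 and 205 CPM in WT and at 409, 350.2, 231, 349 and 444 CPM in R442Q embryos. R442Q replicate 3 came closest to the WT group, which it did not enter, and the log2 difference was 1.12 (SE 0.29, edgeR adjusted p = 0.0455). Some 19.1% of the 50-base stretches of Pcna also occur in the pseudogene Pcna-ps2, so the division of reads between them is uncertain. Rpa3 was at 31.0, 12.5, 21.3 and 29.2 CPM in WT and at 81.6, 57.7, 64.6, 72.0 and 38.6 CPM in R442Q embryos, again without overlap (log2 difference 1.42, SE 0.38, edgeR adjusted p = 0.0488). Gmnn showed how uneven the R442Q embryos were, at 238, 348, 249.8 and 526 CPM in WT and 1032, 716, 63.6, 642 and 805 CPM in R442Q embryos. Replicate 3 alone lay below the WT group, and the log2 difference of 0.94 did not pass (adjusted p = 0.356). Without that embryo it was 1.23 and passed (adjusted p = 0.0315), in 1 of the 9 fits that left out 1 embryo. That embryo also had the most genes detected in its group, 20345 against 14933 in the embryo with the fewest.

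The calls for Orc4, Pcna and Rpa3 lay near the threshold and changed with the model. Each was lost in 8 of the 9 fits that left out 1 embryo, with adjusted p-values up to 0.155, 0.143 and 0.158, although the log2 differences stayed between 0.999 and 1.16, 0.998 and 1.25, and 1.20 and 1.57, and Orc4 and Pcna held only without R442Q replicate 3, Rpa3 only without R442Q replicate 5. With length and GC trends removed Rpa3 had a log2 difference of -0.17 (adjusted p = 0.867), Mcm2 alone was called, and without the filter on low counts the split was 0 higher and 2 lower in place of 3 and 1. The 3 higher genes had a median exon GC content of 36.8% and a median exon length of 2400 bases, against 48.9% and 3991 bases over all tested genes, and Mcm2 had 51.7% and 6956 bases. The part of GC content and length in these differences was measured only by that fit.

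The change from zygote to late 2-cell embryo in WT embryos was larger than the genotype differences for many of the genes. Timeless, Rfc3, Rpa3 and Pold3 fell by 3.88-fold to 10.3-fold, and Rpa2, Fen1, Rfc2 and Gins3 rose by 3.01-fold to 5.51-fold. Of the 47 genes 28 passed an edgeR adjusted p of 0.05 (59.6%), against 61.2% of the 16199 genes tested, a share close to the background. Of these, 11 rose (background 36.2%) and 17 fell (background 25.0%). The median log2 change was -0.34 over the 47 genes and 0.34 over all genes, and the all-gene median moved to 0.31 with relative log expression scaling and 0.24 with factors from unfiltered totals. Stage cannot be told apart from the separate tables in which the stages were deposited.

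Timeless fell the most, from 176, 192, 224, 153 and 177 CPM in the 5 zygotes to 11.8, 38.0, 10.3 and 11.1 CPM in the 4 late 2-cell embryos, here with all embryos scaled together. No late 2-cell embryo came near the zygotes, although replicate 2 was above the other 3 (log2 change -3.37, SE 0.45, edgeR adjusted p = 1.09e-06, -3.71 relative to the median of all genes, and -4.22 without replicate 2). Tipin did not follow its partner, with a log2 change of 0.40 that did not pass (adjusted p = 0.152). In the clamp loader, Rfc3 went from 86.1, 106, 90.4, 89.5 and 98.0 CPM to 28.4, 4.55, 13.4 and 11.1 CPM. Its groups were far apart (-2.71, SE 0.40, edgeR adjusted p = 3.38e-06, and -3.42 without late 2-cell replicate 1), while the loader subunit Rfc2 rose from 12.8, 8.67, 9.02, 6.496 and 6.89 CPM to 28.6, 37.3, 18.3 and 26.4 CPM (1.65, SE 0.47, adjusted p = 0.00412). Rfc4 rose as well (1.45, adjusted p = 0.0192, a call lost without WT zygote replicate 2 or WT late 2-cell replicate 1, with adjusted p up to 0.122), and Rfc5 and Pcna had -0.03 and -0.04 without passing. Rfc1, the large loader subunit, had -0.51 and did not pass with all embryos (adjusted p = 0.0746), but was called lower in 13 of the 20 fits that left out 1 embryo (-1.01 without WT late 2-cell replicate 2, adjusted p = 0.000823).

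The single-strand binding complex changed its mix of transcripts. Rpa3 went from 126, 143, 147, 123 and 108 CPM to 29.8, 12.2, 20.4 and 28.2 CPM (-2.52, SE 0.26, edgeR adjusted p = 2.06e-08). Rpa2, the subunit that checkpoint kinases phosphorylate, went the other way, from 47.7, 37.0, 34.5, 34.1 and 30.3 CPM to 193, 262, 171 and 185 CPM (2.46, SE 0.24, edgeR adjusted p = 1.02e-08). Both shifts separated the stages completely, and Rpa1, the large subunit, fell by 1.87 (adjusted p = 0.000123). Gins3 rose from 20.7, 21.8, 18.05, 18.1 and 20.5 CPM to 66.8, 71.9, 46.8 and 53.2 CPM (1.59, SE 0.34, edgeR adjusted p = 0.000304). Gins1 and Gins2, its partners in GINS, fell by 1.32 and 1.55 on the log2 scale (adjusted p 0.00300 and 5.04e-05). Gins4 had -0.63 and did not pass with all embryos (edgeR adjusted p = 0.0959). It was called lower in 7 of the 20 fits that left out 1 embryo (-1.14 without WT late 2-cell replicate 2, adjusted p = 0.00836).

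Polymerase subunits also divided. Pold3, an accessory subunit of polymerase delta, went from 504, 511, 548, 459.6 and 440.3 CPM to 106, 140.3, 157 and 104 CPM (-1.96, SE 0.20, edgeR adjusted p = 1.86e-08). Pold2 and Pole2 fell too (-1.71, or -2.45 without WT late 2-cell replicate 2, and -1.79), whereas Pole, the catalytic subunit of polymerase epsilon, rose by 1.32 (adjusted p = 0.0409), a call lost in 17 of the 20 fits that left out 1 embryo (0.61 without WT late 2-cell replicate 2). Primase Prim1 rose (1.55, adjusted p = 3.13e-06) while Pola1 and Pola2 changed by -0.93 and -0.91. Fen1, the flap nuclease of Okazaki fragments, rose from 24.3, 17.5, 29.1, 22.9 and 33.6 CPM to 101, 101, 80.7 and 117 CPM, with no overlap (1.97, SE 0.35, edgeR adjusted p = 3.66e-05). Exons of Fen1 overlap Tmem258 and Gm10143, those of Rfc2 overlap Lat2, and those of Timeless overlap Gm26847, all on the opposite strand. Exons of Orc1, Orc2, Mcm7, Mcm9, Cdc45, Gins2, Pole, Rfc4, Rfc5 and Lig1 also overlap other genes on the opposite strand. Of the 50-base stretches of Mcm7, Rpa3 and Pole2, 18.1%, 9.48% and 8.16% also occur in other genes.

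Origin and helicase genes showed both directions within WT embryos. Orc2 rose (0.74, adjusted p = 0.00129) and Orc5 fell (-1.95, adjusted p = 2.02e-05, and -2.59 without WT late 2-cell replicate 3). Orc1 rose by 0.85 (adjusted p = 0.0106), a call lost without WT zygote replicate 2 or WT late 2-cell replicate 1 (0.37, adjusted p = 0.247). Mcm6 rose (1.01, adjusted p = 0.00828, and 0.0509 without WT late 2-cell replicate 2), while Mcm4 (-1.89, adjusted p = 0.000631), Mcm2 (-0.83, adjusted p = 0.00494) and Mcm5 (-0.75, adjusted p = 0.0437) fell, the last lost in 5 of 20 leave-one-out fits. Mcm10 fell (-1.92, adjusted p = 0.000191) and Cdc45 rose (1.17, adjusted p = 6.91e-05), and Cdt1 fell (-0.73, adjusted p = 0.0428), a call lost in 6 of the 20 fits (adjusted p up to 0.0928). Of the 11 genes with E2F-type letters 2 rose and 5 fell, and of the 27 matched genes without them 7 rose and 9 fell, against 36.2% and 25.0% of all genes. Those with the letters included the printed Orc1 and Mcm6 upwards and Mcm5 and Rfc3 downwards.

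In R442Q embryos 37 of the 47 genes changed between the stages (78.7%), against 65.1% of all genes. Of these 17 rose (background 35.3%) and 20 fell (background 29.8%), with medians of -0.33 over the 47 genes and 0.22 over all genes. The genes called in both genotypes numbered 25, and all 25 had the same direction in both. This overlap was not counted over all genes, of which 61.2% were called in WT and 65.1% in R442Q embryos, so it is not read as particular to the set. Mcm2 fell by 4.24 on the log2 scale (edgeR adjusted p = 2.43e-12), or 18.9-fold, from a mean of 298 to 15.7 CPM, against a mean of 181 falling to 102 CPM in WT. Orc4, Orc6 and Pcna rose in R442Q embryos by 1.56, 0.68 and 0.97, and had 0.09, 0.00 and -0.04 in WT embryos (adjusted p 0.752, 0.989 and 0.881). Rpa2 rose by 3.12, Rfc4 by 3.06 and Prim1 by 2.65, while Timeless fell by 3.35 and Mcm10 fell by 3.13.

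**Figure D3:**
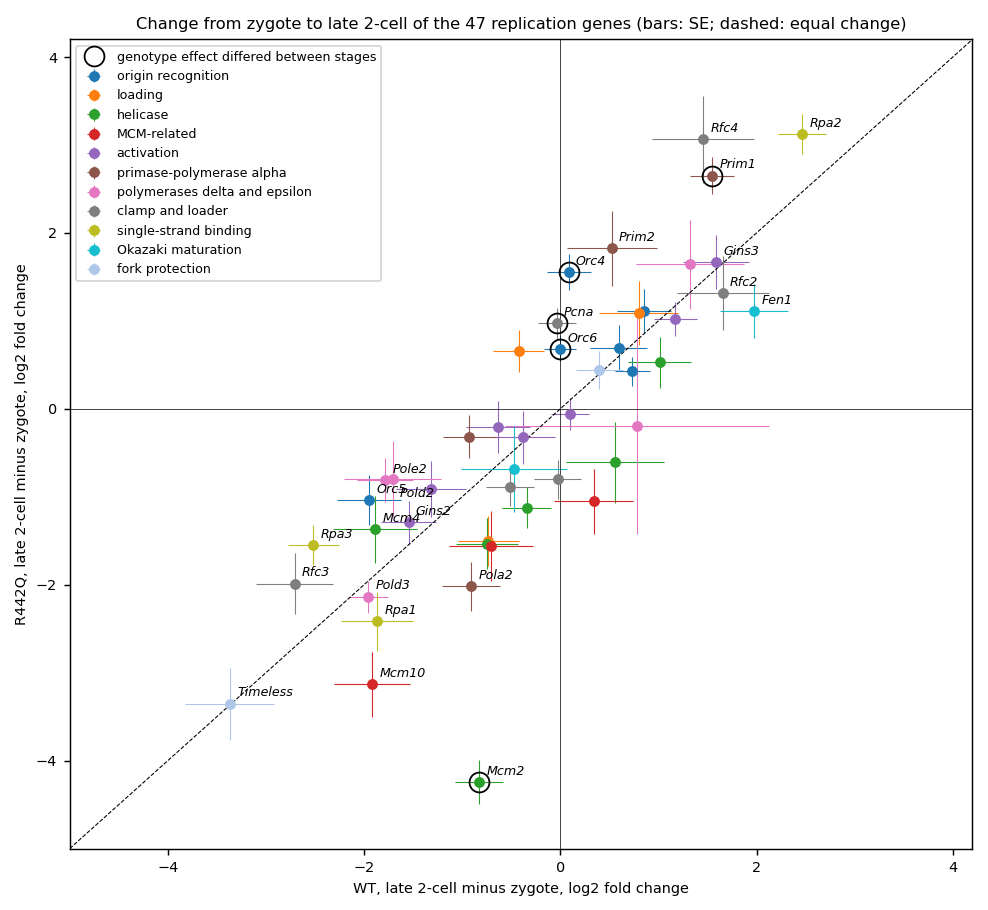
Log2 change from zygote to late 2-cell embryo for the 47 replication genes, with WT embryos on the horizontal axis and R442Q embryos on the vertical axis, and bars of 1 SE. Circled genes are the 5 whose genotype effect differed between stages: Mcm2 lies below the diagonal and Orc4, Orc6, Pcna and Prim1 above it.

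Whether the genotype effect itself differed between the stages was tested as an interaction over all 20 early embryos. It did for 5 of the 47 genes (10.6%), against 10.1% of all genes, so the share is that of the background. The effect on Mcm2 was lower at the late 2-cell stage than in zygotes by 3.41 on the log2 scale (estimate -3.41, SE 0.33, edgeR adjusted p = 1.16e-06). The effect was higher at the late 2-cell stage for Orc4 (1.47, SE 0.30, adjusted p = 0.00339), Pcna (1.01, SE 0.26, adjusted p = 0.0158), Prim1 (1.10, SE 0.30, adjusted p = 0.0227) and Orc6 (0.69, SE 0.22, adjusted p = 0.0435). Relative to the median over all genes of -0.16, which became -0.01 with relative log expression scaling and -0.02 with factors from unfiltered totals, these were -3.25, 1.63, 1.17, 1.26 and 0.85. The Orc6 call was lost in 5 of the 20 fits that left out 1 embryo, and those for Orc6, Prim1 and Pcna without the filter on low counts. Cdc6 (1.08, adjusted p = 0.0538) and Rpa3 (0.97, adjusted p = 0.0601) did not pass with all embryos, but did in 11 and 8 of the 20 fits.

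The single embryos show what lies behind these 5 genes. With all embryos scaled together, Prim1 was at 29.5, 24.9, 22.1, 18.4 and 21.1 CPM in WT zygotes and at a lowest, median and highest of 12.7, 14.2 and 19.0 CPM in R442Q zygotes. At the late 2-cell stage it was at 58.0, 89.6, 61.2 and 63.1 CPM in WT and 78.3, 91.0, 88.3, 113 and 91.9 CPM in R442Q embryos. Prim1 was therefore mostly lower in R442Q zygotes and mostly higher in R442Q late 2-cell embryos, with WT replicate 2 among the R442Q values at the later stage. In zygotes Pcna overlapped between the genotypes (149 to 177 CPM in WT and 139 to 189 in R442Q), as did Orc6 (361 to 430.4 and 373 to 409.6), and Orc4 was just lower in R442Q (42.3 to 53.1 and 20.05 to 41.9). All 3 had separate ranges with R442Q higher at the late 2-cell stage. Mcm2 was the one gene called in both stages with opposite directions, and Rpa3 was called higher in both, with a zygote call lost in 6 of 11 leave-one-out fits and a late 2-cell call lost in 8 of 9 and reversed to -0.17 with length and GC trends removed.

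**Figure D4:**
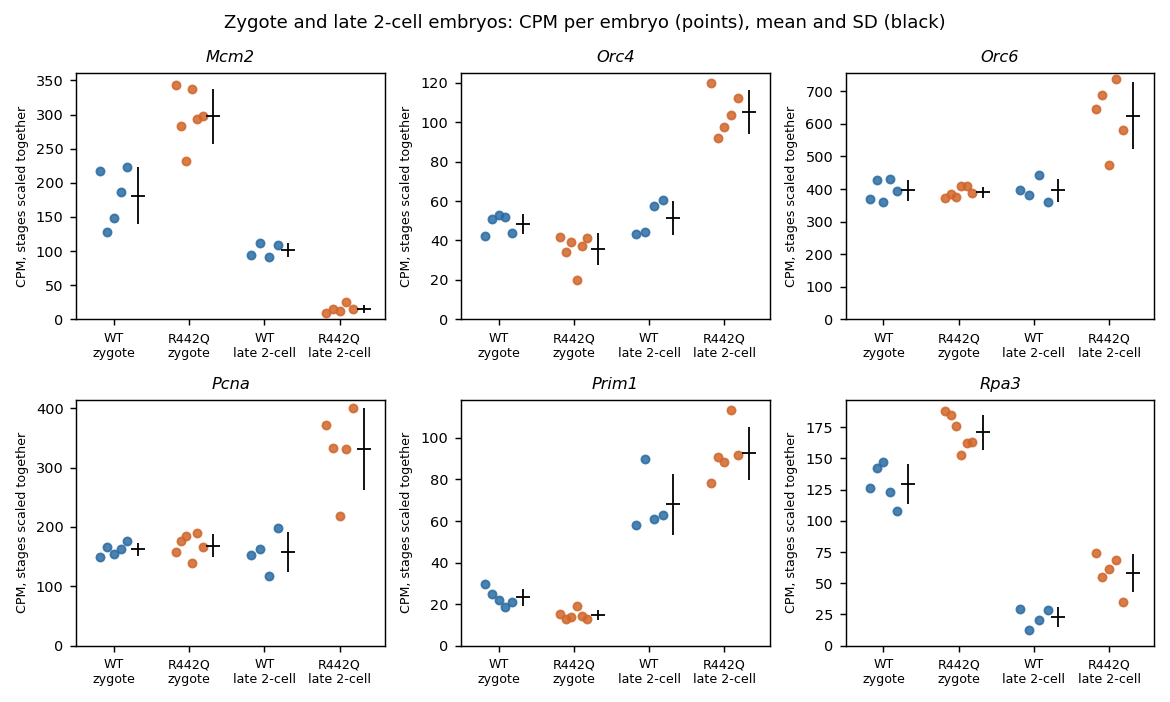
CPM in each early embryo, with all stages scaled together, for Mcm2, Orc4, Orc6, Pcna, Prim1 and Rpa3 in the 4 groups of zygotes and late 2-cell embryos. Points are embryos, and in R442Q late 2-cell embryos Mcm2 lies at 9.21 to 25.4 CPM against 91.3 to 113 CPM in WT.

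The interaction calls for Mcm2, Orc4, Pcna and Prim1 held in all 20 fits that left out 1 embryo, and that for Orc6 was lost in 5 (adjusted p up to 0.0882, without WT zygotes 1, 3, 4 or 5 or WT late 2-cell embryo 4). Without the filter on low counts Prim1 and Pcna had adjusted p-values of 0.0952 and 0.0518 and only 2 genes passed, and DESeq2 called 8.

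Blastocysts of both genotypes had grown with the CHK1 inhibitor, and their comparison asked whether R442Q and WT still differed under it. None of the 47 genes passed a limma adjusted p of 0.05 on log2(FPKM + 1), where 1 of 11297 genes did (0.00885%). At an unadjusted p under 0.05 the count was 3 of 47, against 7.40% of all genes, and 1 gene had separate groups, against 0.416%. The median log2 difference was -0.21 over the 47 genes and -0.10 over all genes. Of the 47 genes 12 lay above 0 and 35 below, a split that was not counted over all genes, whose median was also below 0. The number of cells in each blastocyst was not measured, and fewer cells of a type cannot be told apart from less RNA per cell.

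The 3 genes under the unadjusted threshold were Pola2, Pola1 and Mcm9, singled out after their values were seen. Pola2, the regulatory subunit of polymerase alpha, had a lowest, median and highest of 259, 322 and 366 FPKM in WT and 402.9, 532 and 918 FPKM in R442Q blastocysts. All 7 R442Q blastocysts were above all 7 WT blastocysts, with means of 319 ± 33.0 (SD, n = 7) and 612 ± 196 (SD, n = 7) and a log2 difference of 0.88 (SE 0.19, limma adjusted p = 0.118, and 0.0810 to 0.318 over the other settings and with each embryo left out). Pola1, the catalytic subunit, had 35.8, 70.3 and 100.02 FPKM in WT and 82.2, 120.5 and 211 FPKM in R442Q blastocysts as lowest, median and highest. Its groups overlapped, and the log2 difference was 0.86 (SE 0.25, limma adjusted p = 0.250). Mcm9, which acts with Mcm8 in repair, had -1.48 (limma adjusted p = 0.306), and the primase subunits Prim1 and Prim2 had -0.36 and 0.46.

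R442Q blastocyst 7 stood out within its group, as the lowest of all 14 blastocysts for 14 of the 47 genes and the highest for 7. WT blastocysts 5 and 1 were the highest for 11 and 9 genes. The summed level of the trophectoderm genes ran from 3200 to 24282 FPKM in WT and from 1245 to 12860 FPKM in R442Q blastocysts, and its part in these values was not tested. Mcm2 differed by -0.65 with an SE of 0.40, Mcm5 by -0.53 with an SE of 0.33, and Orc4, Pcna and Rpa3 by -0.11, -0.21 and -0.03, none with an adjusted p under 0.05.

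Across the 3 stages the tables were normalised separately, so levels are set side by side without a test. FPKM summed over all genes was 669904 to 687863 in WT zygotes, 712234 to 742246 in WT late 2-cell and 979070 to 1164489 in WT blastocysts, so unscaled values are raised in blastocysts. In WT embryos 9 genes had blastocyst FPKM ranges above those of both earlier stages (Mcm3, Mcm5, Pola1, Pola2, Pold1, Pold2, Rfc2, Rfc4 and Lig1), 5 had ranges below both (Orc2, Orc6, Gmnn, Cdc45 and Dbf4), and 33 overlapped at least 1 of them. In R442Q embryos the counts were 11, 4 and 32. With every embryo scaled to a common sum, 7 genes lay above (without Mcm3 and Pold2), 8 below (with Orc1, Pold3 and Tipin added) and 32 overlapped in WT, and the counts were 6, 9 and 32 in R442Q embryos. Such ranges were not counted over all genes, so whether these counts differ from those of other genes was not tested. Pola2 was the highest of the 47 genes in blastocysts of both genotypes, a place held by Orc6 or Gmnn in the early groups. The summed FPKM of Mcm2 to Mcm7 had a lowest, median and highest of 219.5, 244 and 259.9 in WT zygotes, 195, 242 and 283 in WT late 2-cell embryos, and 320.1, 554 and 903 in WT blastocysts. In R442Q embryos the same sum was 202, 215 and 255 in zygotes, 94.9, 117 and 227 in late 2-cell embryos, and 231, 399.6 and 619.9 in blastocysts. The median was thus lowest in R442Q late 2-cell embryos, where the range overlapped that of WT late 2-cell embryos, and highest in WT blastocysts. With the common sum the medians were 362 for WT zygotes, 328 at the late 2-cell stage and 529 for WT blastocysts, against 316, 123 and 359 for R442Q, with the same groups lowest and highest.

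**Figure D5:**
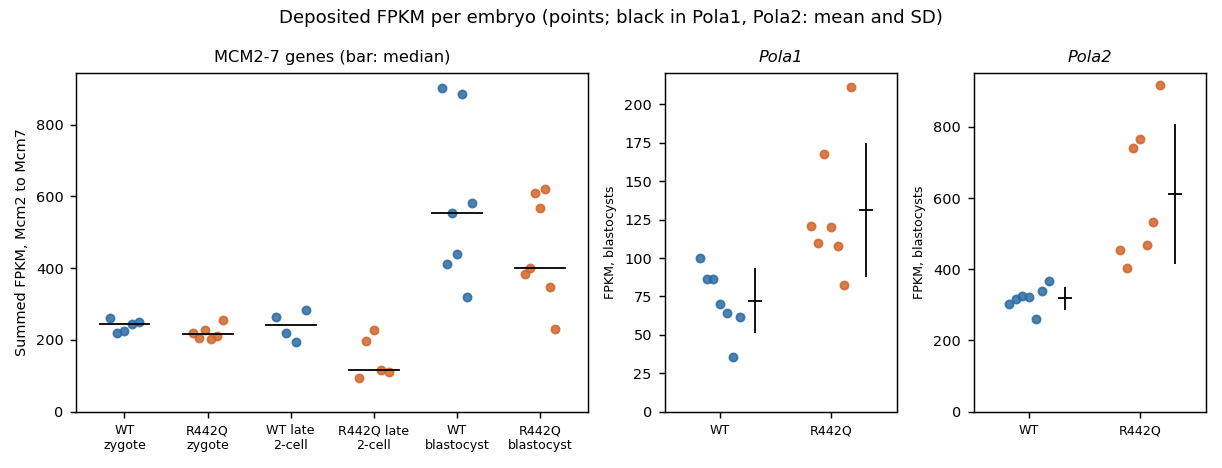
Summed FPKM of Mcm2 to Mcm7 in each embryo of the 6 groups, with a bar at the median, and FPKM of Pola1 and Pola2 in each blastocyst with mean and SD. The median of the sum is 117 in R442Q late 2-cell embryos and 554 in WT blastocysts, and all 7 R442Q blastocysts lie above the WT blastocysts for Pola2.

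Other factors that act on replication chromatin, a list of 30 genes outside the set, moved in zygotes only downwards among those that passed. Of the 30 tested, 7 were lower in R442Q zygotes, against 6.92% of all genes, and 0 were higher, against 6.30%, with a median log2 difference of -0.19. They were the checkpoint adaptor Clspn (-0.73), the Cdt1 ubiquitin ligase receptor Dtl (-0.62), the timing factor Rif1 (-0.62), the chromatin assembly subunit Chaf1a (-0.58), the APC/C inhibitor Fbxo5 (-0.52) and the topoisomerase genes Top2a (-0.44) and Top1 (-0.39). In late 2-cell embryos 1 of 29 tested passed, the clamp loader cofactor Chtf8 (-2.56, edgeR adjusted p = 0.0382), against 2.95% of all genes lower and 1.22% higher, so the share is near the background. In blastocysts 0 of 30 passed in limma, with 1 at an unadjusted p under 0.05, against 7.40% of all genes. From zygote to late 2-cell, 12 of the 30 rose and 7 fell in WT embryos, against 36.2% and 25.0% of all genes, and 9 rose and 8 fell in R442Q embryos, against 35.3% and 29.8%, shares near the background.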

How the data were processed

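Single-embryo libraries were made with SMART-seq2, fragmented with Tn5 and sequenced on an Illumina HiSeq X-10, per the labels' protocols. The submitters' processing notes name RSEM and mm10, and do not say which step used them. The deposited zygote and late 2-cell tables hold the authors' estimated counts per gene symbol, not normalised. For all 3 stages the authors deposited FPKM, which scales fragments by transcript length and by library. Whether reads were counted by strand is not given in the sources used here.

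Estimated counts were rounded to whole numbers for edgeR 4.0.16 in R 4.3.3 (filterByExpr, minimum count 10, TMM, quasi-likelihood test), 1 fit per stage, and a fit of both stages for stage changes and the interaction. Blastocysts were analysed with limma 3.58.1 on log2(FPKM + 1), for genes at FPKM 1 or more in at least 7 of 14 embryos, so differences of low genes are understated. P-values were adjusted by Benjamini-Hochberg over all genes tested, at a threshold of 0.05. DESeq2 1.42.0, other scalings and filters, replicate blocks, removal of length and GC trends, and leaving out each embryo were alternatives. The edgeR tests were checked on simulated data with planted changes larger than any zygote difference called here, so that check does not bear on smaller changes. Intervals from counts were not used, and floors of 3 counts take in counting error alone, because the amplified reads have no molecular identifiers. Precision is that of 7183632 to 11296522 counts per zygote and 5727956 to 8916343 per late 2-cell embryo.

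Groups and replicate numbers came from the sample titles. The genes and lists were chosen with earlier results of these data known. Embryo values (lowest, median and highest for R442Q zygotes and blastocysts) are given for genes passing in late 2-cell embryos, the 8 with the smallest p in zygotes, and the 4 largest rises and 4 largest falls between stages in WT embryos. Interaction genes are given by embryo or by range. Gene positions, lengths and GC content are from GENCODE M21 (GRCm38), and promoters from RefSeq.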

Additional observations from a re-analysis of the deposited data

Results flagged for a closer look

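In 5 of 68 gene and group pairs examined, 1 embryo stood far from the rest of its group, by Dixon's gap ratio at a level where chance sets apart about 1 in 20 groups. Prim1, the primase subunit, was at 91.6 CPM in WT late 2-cell replicate 2, and at 60.5 to 65.4 CPM in the other 3 embryos. The same embryo had Timeless at 38.8 CPM against 10.7 to 12.3 CPM in the others. R442Q zygote replicate 2 had Orc1 at 30.2 CPM against 50.8 to 56.3 CPM, and Rfc3 at 50.2 CPM against 79.6 to 90.6 CPM. WT zygote replicate 1 had Rpa2 at 47.9 CPM against 29.7 to 34.4 CPM in the other 4.

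The genotype effect differed between zygotes and late 2-cell embryos, by the edgeR interaction test, for Mcm2 (log2 -3.41), Orc4 (1.47), Prim1 (1.10), Pcna (1.01) and Orc6 (0.69).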

How the results depend on the processing

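In zygotes the count of 16 genes became 0 with late 2-cell embryos in the model (11 at an unadjusted p under 0.05) and 9 to 19 with 1 embryo left out, and was 14 to 19 with other scalings, filters, tools or the trend removal. In late 2-cell embryos the count of 4 became 2 without a filter on low counts, 11 with zygotes in the model, 1 with length and GC trends removed and 1 to 6 with 1 embryo left out, and the log2 difference of Rpa3 reversed to -0.17 with those trends removed. The interaction count of 5 became 8 with DESeq2, 2 without the filter, 7 with relative log expression scaling, 7 with factors from unfiltered totals (chosen after seeing the data) and 4 to 9 with 1 embryo left out. With FPKM scaled to a common sum (chosen after seeing the data), blastocyst ranges below both earlier stages went from 5 to 8 genes in WT and 4 to 9 in R442Q embryos, and ranges above both from 11 to 6 in R442Q embryos. Counts of stage changes stayed within 1.5 times of 28 and 37. The cause of these shifts was not tested.

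Over all genes, the zygote count of 1643 became 270 with both stages in the model. The late 2-cell count of 580 became 1683 with DESeq2, 889 without the filter, 2507 with both stages, 193 with length and GC trends removed and 142 to 891 with 1 embryo left out. The blastocyst count of 1 became 30 without WT replicate 7, 3 with TMM factors and 0 without a filter, and the interaction count of 1639 became 1089 to 2311 with 1 embryo left out.

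Title numbers did not pair embryos across genotypes, with correlations of deviations between -0.0568 and 0.0621 in zygotes, -0.144 and 0.207 in late 2-cell embryos and -0.168 and 0.204 in blastocysts. WT embryos correlated best with their own number in 1 of 5, 1 of 4 and 2 of 7 cases. A replicate block by title number gave 12 genes in zygotes, 1 in late 2-cell embryos (58 over all genes) and 0 in blastocysts. A block by the number in the descriptions gave 8 in zygotes (1004 over all genes) and 0 in late 2-cell embryos (10 at an unadjusted p under 0.05 in edgeR, and 0 over all genes).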

Other observations

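The E2F factors and their partners, 13 genes, were read beside the promoter letters. In R442Q zygotes 2 of 11 tested were higher, E2f4 (log2 difference 0.40, edgeR adjusted p = 0.0400) and its dimer partner Tfdp1 (0.49, edgeR adjusted p = 0.0400), and 0 were lower, where 6.30% and 6.92% of all genes were higher and lower. E2f1, the best known activator of the family, had 0.36 (adjusted p = 0.508). In late 2-cell embryos 0 of 12 tested passed in edgeR (0 at an unadjusted p under 0.05), with Tfdp1 at -0.54 (adjusted p = 0.321) and E2f7, a repressor, at -0.94 (adjusted p = 0.280). The genotype effect on Tfdp1 was lower at the late 2-cell stage than in zygotes (-1.11, adjusted p = 0.0241), as was that on E2f7 (-3.30, SE 1.01, adjusted p = 0.0384), 2 of 13 genes where 10.1% of all genes passed. From zygote to late 2-cell, E2f7 rose and E2f5 and Rbl1 fell in WT embryos, where 36.2% of all genes rose and 25.0% fell. In R442Q embryos E2f6 and E2f7 rose, and E2f2, E2f4, E2f5, Rbl1 and Tfdp1 fell, where 35.3% of all genes rose and 29.8% fell.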
